A study of Mus musculus with 36 samples.

Results

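Vomeronasal transduction genes were described across 36 RNA-seq libraries of the mouse olfactory system. The 7 genes, Gnai2, Gnao1, Gng8, Plcb2, Trpc2, Ano1 and Calr4, were taken as a list of named genes from the 24502 genes measured in all 36 libraries, and the FPKM (fragment counts divided by transcript length and by the size of the library) of the RefSeq transcript entries of each gene were summed. The libraries came from the main olfactory epithelium (MOE), the vomeronasal organ (VNO) and the olfactory bulb (OB) of C57BL/6 mice, with 12 libraries per tissue. The mice were females or males kept only with their own sex (sex-separated, SF and SM) or with both sexes (sex-combined, CF and CM), with 3 libraries for each of these 4 groups in every tissue, which addresses whether a long exposure to the opposite sex goes with changes in gene expression. All mice were unmanipulated, were weaned at 3 weeks, lived 4 to a cage under 1 of these housings and were 6 months old at dissection. SF and SM cages stood in rooms of 1 sex, while the CF and CM mice shared their cages and could breed. The study states that pups born in the shared cages were euthanized within a day. Contact with the other sex, breeding and the removal of pups thus cannot be told apart in these groups. Each library was made from RNA pooled from several mice (2 by the labels, 3 by the text of the study), so that a replicate is a pool. The 3 tissues were dissected from the same mice, and the sources used here do not say which libraries of different tissues hold RNA of the same animals, so that the tests between tissues treat libraries as separate that share animals.

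The VNO detects pheromones and other social odors. Its sensory neurons form an apical layer, which carries V1R receptors and the G protein subunit encoded by Gnai2, and a basal layer, which carries V2R receptors and the subunit encoded by Gnao1. A receptor that binds its ligand activates the G protein, a phospholipase C produces inositol trisphosphate and diacylglycerol, and the cation channel TRPC2 opens and lets calcium enter. Calcium-activated chloride channels of the anoctamin family, among them that of Ano1, add to the current. Gng8 encodes a G protein gamma subunit of vomeronasal neurons, Plcb2 a beta class phospholipase C known from taste and other chemosensory cells and from blood cells, and Calr4 a calreticulin, a chaperone of the endoplasmic reticulum.

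The promoter windows of Trpc2 and Calr4 are shown because these genes stood lowest outside the VNO relative to their VNO level. Each window is the 250 bases before the annotated start in RefSeq on GRCm38.p6, plus strand (Trpc2 at chr7:102082866-102083115, Calr4 at chr4:109218163-109218412, the window of the entry that held the Calr4 value in the VNO). Capitals mark matches to CANNTG, the E-box to which basic helix-loop-helix factors can bind.
Trpc2: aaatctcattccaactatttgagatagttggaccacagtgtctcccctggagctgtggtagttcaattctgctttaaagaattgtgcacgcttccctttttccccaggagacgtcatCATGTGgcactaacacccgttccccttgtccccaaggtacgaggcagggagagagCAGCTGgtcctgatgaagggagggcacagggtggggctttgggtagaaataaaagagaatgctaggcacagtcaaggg
Calr4: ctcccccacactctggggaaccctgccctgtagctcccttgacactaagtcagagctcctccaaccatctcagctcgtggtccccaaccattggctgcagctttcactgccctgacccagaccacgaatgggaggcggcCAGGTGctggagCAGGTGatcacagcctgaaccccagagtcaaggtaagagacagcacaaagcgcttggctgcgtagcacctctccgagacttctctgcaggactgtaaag
The matches in Trpc2 begin at positions -133 and -78 from the start, and those in Calr4 at -111 and -99. CANNTG, which reads the same on both strands, was found in 66.2% of 32851 such windows, so that its presence is common. TAATTA, a homeodomain motif, and TATAAA, searched on both strands and held by 4.84% and 12.4% of all windows, were found in none of the windows of the 6 members in the table. Gnai2 was not among the windows.

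Receptor genes of the VNO and markers of olfactory sensory neurons were in accord with the tissue labels. The summed FPKM of 209 Vmn1r genes was between 170.6 and 231.5 in VNO libraries and at most 1.73 in MOE and 1.54 in OB libraries, and that of 124 Vmn2r genes was between 223.5 and 272.2 in VNO against at most 2.90 in MOE and 3.16 in OB. The 6 markers of olfactory sensory neurons summed to between 562.7 and 911.2 in MOE and to at most 45.1 in VNO and 17.2 in OB. The markers of apical (Meis2, Nrp2) and basal (Robo2, Tfap2e) vomeronasal neurons were mixed. Nrp2 and Tfap2e had a mean FPKM of 19.5 and 2.55 in VNO, 10.2 and 0.0138 in MOE and 1.45 and 0.0393 in OB. Meis2 and Robo2 were higher in OB (57.2 and 11.5) than in VNO (11.9 and 3.62). In MOE they had 2.63 and 5.06, so that Robo2 was lowest in VNO. The fragments estimated on listed transcripts were between 3016524 and 6779893 per library. The lowest of these was the library MOE-CM3, which also had the lowest MOE value of Gnai2, Gng8, Plcb2 and Ano1 and the highest of Gnao1, and the tests between tissues given here kept their call without it. The study lists MOE-CM3 with the most input read pairs of the MOE libraries. Its shares of aligned reads and of concordant pairs were the lowest of all libraries. The estimate is thus not a measure of the pairs sequenced.

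Gnai2, the subunit of the apical layer, was the most abundant of the 7 genes in the VNO. Its FPKM was 46.1 ± 2.95 in VNO (SD, n = 12, as for all tissue values), between 41.8 and 50.4 with a median of 47.0. In MOE it was 14.2 ± 2.11, between 9.13 and 16.9 with a median of 14.8, and in OB 26.8 ± 2.17, between 22.6 and 29.3 with a median of 27.3. The 3 tissues did not overlap, with VNO highest and MOE lowest in every library. On the log2(FPKM + 0.5) scale the VNO exceeded MOE by 1.68 (SE 0.067, adjusted p = 9.87e-20) and OB by 0.77 (SE 0.067, adjusted p = 6.92e-12) in limma with Benjamini-Hochberg adjustment over 14596 genes. These tests are the same for all members below. The RNA integrity numbers that the study lists did not overlap between the tissues, with VNO lowest and OB highest. Tissue and RNA integrity thus cannot be told apart in these tests. With whole tissue, a larger share of cells that express a gene and more RNA per cell cannot be told apart.

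Gnao1, the subunit of the basal layer, did not follow Gnai2. Its FPKM was 4.85 ± 0.691 in VNO (4.13 to 6.66, median 4.70), 4.12 ± 0.789 in MOE (2.55 to 5.76, median 4.12) and 11.3 ± 0.937 in OB (9.76 to 12.7, median 11.3). VNO and MOE libraries overlapped, and all of them lay below all OB libraries. The VNO was higher than MOE by 0.22 (SE 0.0735, adjusted p = 0.00686) and lower than OB by 1.15 on the log2 scale (difference -1.15, SE 0.0735, adjusted p = 4.79e-15). The first of these calls was lost when only the larger transcript entry of each gene was used (0.04, adjusted p = 0.689 from limma). Gnao1 is widely expressed in brain neurons, and the 6 markers of bulb neurons summed to between 366.5 and 516 in OB and to at most 33.2 in MOE and 16.7 in VNO. Their part in its level was not tested. In the same library, Gnai2 had 7.07 to 11.4 times the FPKM of Gnao1 in VNO (median 9.51), 1.58 to 5.28 times in MOE (from 3.00 without MOE-CM3) and 1.94 to 2.73 times in OB, and the summed Vmn1r FPKM in VNO was 0.716 to 0.907 times that of Vmn2r. These ratios are descriptions without a test.

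Gng8, which encodes the gamma subunit, had an FPKM of 8.02 ± 1.65 in VNO (5.60 to 11.2, median 8.03) and 2.09 ± 0.686 in MOE (1.01 to 3.26, median 1.96). In OB it was listed at 0 in 2 libraries and at no more than 0.497 in the others, from at most 6 estimated fragments. All VNO libraries exceeded all MOE and OB libraries. The VNO exceeded MOE by 1.74 (SE 0.133, adjusted p = 6.41e-13), and MOE exceeded OB by 1.81 (SE 0.133, adjusted p = 1.49e-13). In OB the level was near the limit of 3 fragments, so that the fitted difference between VNO and OB (3.55, adjusted p = 5.94e-21 from limma) depended on the pseudocount and moved to 4.78 with a pseudocount of 0.1. That between MOE and OB likewise moved to 2.85 with 0.1 and 1.31 with 1.

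Plcb2 was the least abundant member in VNO. Its FPKM was 0.671 ± 0.0985 in VNO (0.489 to 0.847, median 0.697), 0.213 ± 0.0572 in MOE (0.111 to 0.340, median 0.209) and 0.194 ± 0.0354 in OB (0.144 to 0.247, median 0.188). The VNO libraries lay above all others, while MOE and OB overlapped. Its mean over the 36 libraries was below the filter of 0.5, so that the tests between tissues did not include it. Without the filter, the difference was 0.72 between VNO and MOE (adjusted p = 1.51e-17) and 0.75 between VNO and OB (adjusted p = 1.8e-18), against 0.04 between MOE and OB (adjusted p = 0.329, all from limma).

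Trpc2, the transduction channel, was high only in VNO among the 3 tissues. Its FPKM was 43.0 ± 4.85 (33.3 to 50.4, median 43.7) from 828.8 to 1295.4 estimated fragments per library. In MOE it was 0.938 ± 0.246 (0.552 to 1.23, median 0.994). In OB it was listed at 0 in 7 of 12 libraries and at between 0.341 and 0.634 in the other 5. The VNO exceeded MOE by 4.93 (SE 0.111, adjusted p = 5.54e-26), which is 30.5-fold on this scale. The fitted difference between VNO and OB was 6.03 (adjusted p = 6.1e-29) and that between MOE and OB 1.10 (adjusted p = 1.96e-10, limma). Both depended on the pseudocount, and the latter was 2.29 with 0.1 and 0.71 with 1. The Trpc2 entry lies at chr7:109231630-109245378 in mm9, within the locus of the readthrough gene Xntrpc, and reads in the shared part can be given to either. Xntrpc was at 0 in all 12 VNO libraries but above 0 in 4 of the 7 OB libraries that listed Trpc2 at 0. In MOE it was above 0 in 4 libraries, namely every CF library (0.397, 0.280 and 0.215) and MOE-SM2 (0.671). The comparisons of sex and housing given below use Trpc2 without Xntrpc. With the Xntrpc entries added, MOE had 1.07 ± 0.198, OB had between 0 and 0.634 with 3 libraries at 0, and the VNO exceeded MOE by 4.79 (adjusted p = 2.23e-27 from limma), an alternative chosen after seeing the data.

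Ano1, the chloride channel, had an FPKM of 15.6 ± 1.19 in VNO (13.5 to 18.0, median 15.4), 5.41 ± 0.716 in MOE (3.73 to 6.36, median 5.68) and 0.723 ± 0.0861 in OB (0.616 to 0.930, median 0.717). The 3 tissues did not overlap, in the order VNO, MOE, OB. The VNO exceeded MOE by 1.45 (SE 0.055, adjusted p = 2.41e-20) and OB by 3.72 (SE 0.055, adjusted p = 2.23e-31), and MOE exceeded OB by 2.26 (SE 0.055, adjusted p = 7.49e-26). The last call was lost when only the highest transcript entry of a gene was used (0.27, adjusted p = 0.664 from limma). Ano1 is also expressed in smooth muscle and glands. The 4 smooth muscle markers summed to between 288.4 and 386.3 in VNO, 42.9 and 87.0 in MOE and 1.71 and 5.78 in OB, in the same order as Ano1, and the 4 gland markers to between 2132 and 3536 in VNO, 3250 and 6105 in MOE and 0.403 and 6.52 in OB. The order of the gland sum in VNO and MOE was that of Bpifa1 (mean FPKM 1384 and 4748), while Ltf (1424 and 187), Aqp5 (35.4 and 28.5) and Muc5b (12.5 and 11.2) had the higher mean in VNO. Leukocyte markers, which bear on Gnai2 and Plcb2, summed to between 28.9 and 39.3 in VNO, 9.25 and 16.3 in MOE and 24.4 and 29.7 in OB. The order of this sum was not that of each marker. Coro1a had its highest mean FPKM in OB (15.1, against 7.58 in VNO and 4.72 in MOE). Ptprc and Cd68 were lower in OB than in MOE (0.4997 and 2.16, and 1.26 and 1.58). Csf1r, Itgam and Laptm5 were higher in OB than in MOE (6.95 and 3.61, 1.58 and 0.771, and 1.33 and 1.13). Of the 6 tuft cell markers, Trpm5, Pou2f3, Chat and Avil were lower in VNO than in MOE (mean FPKM 0.322 and 1.04 for Trpm5), while Itpr3, which is also one of the pathway genes below, and Gnat3 were higher (4.84 and 1.35, and 1.12 and 0.271). The part of these cell types in the member values was not tested.

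Calr4, the chaperone, had an FPKM of 39.7 ± 3.90 in VNO (32.9 to 46.5, median 39.3), from 700.2 to 1145.5 estimated fragments per library. In MOE it was listed at between 0 and 0.254, with 1 library at 0 and a median of 3.3 fragments, and in OB at between 0.0205 and 0.205, from at most 5.8 fragments. Both tissues were thus at or near the limit of 3 fragments. On the log2(FPKM + 0.5) scale the VNO exceeded MOE by 5.98 and OB by 6.11, and with a pseudocount of 0.1 by 7.46 and 7.83. Calr4 passed the filter of 0.5 only through its VNO level, so that these differences are descriptions. MOE and OB are likewise given by their values, without a test.

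**Figure D1:**
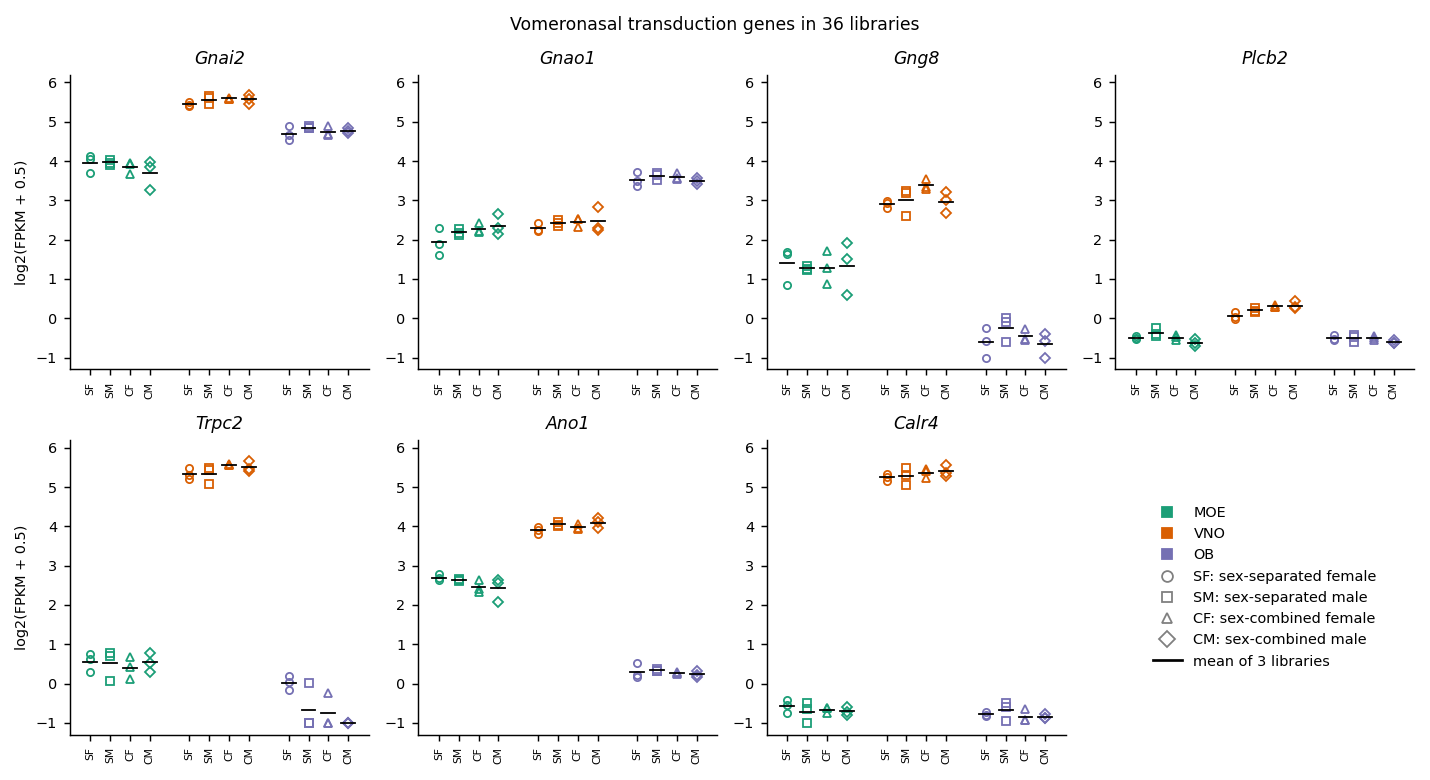
log2(FPKM + 0.5) of the 7 genes in the 36 libraries, with 1 symbol per library, colors for tissues, symbol shapes for groups and lines for the mean of 3 libraries. Trpc2 and Calr4 were between 33.3 and 50.4 and between 32.9 and 46.5 FPKM in VNO and near the bottom of the scale elsewhere, while Gnao1 was highest in OB.

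Of the 6 members tested, all 6 were higher in VNO than in MOE, where 34% of 14596 genes were called higher and 48.6% lower. Upper quartile scaling moved the higher share of all calls from 41.1% to 51.6% and the median difference over all genes from -0.15 to 0.02, but each member kept its direction. Against OB, 5 members were higher and Gnao1 was lower in VNO, beside 37.8% higher and 48% lower among all genes. Between MOE and OB, Trpc2, Gng8 and Ano1 were higher in MOE and Gnao1 and Gnai2 lower, beside 45.7% and 39.3%. The median difference over the members tested was 1.71 between VNO and MOE and 3.64 between VNO and OB, while the median over all genes was -0.15 and -0.12. These counts and medians include Calr4, which passed the filter only through its VNO level. The members were named for their role in the VNO, so that these counts describe them and do not set them apart from other genes.

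**Figure D2:**
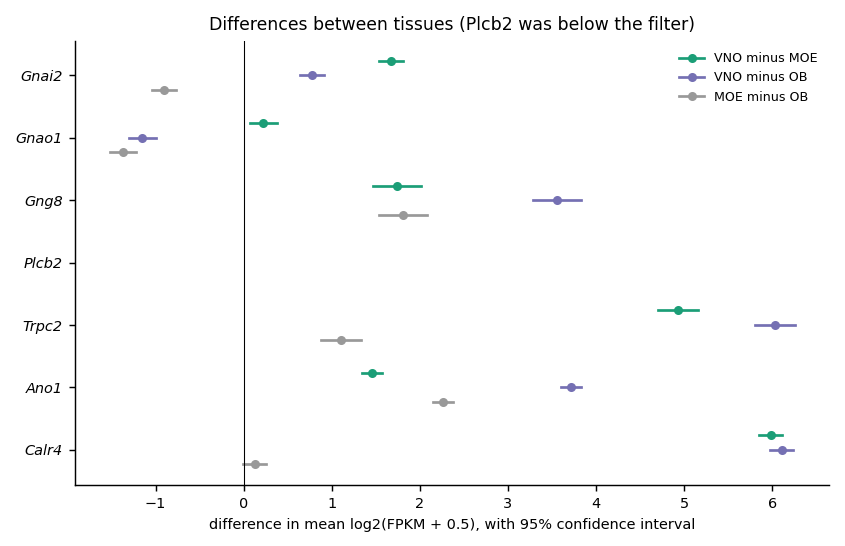
Differences in mean log2(FPKM + 0.5) between tissues for the members, as points with 95% confidence intervals from limma over 36 libraries. The differences between VNO and MOE ran from 0.22 for Gnao1 to 5.98 for Calr4, and Plcb2 was below the filter.

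By their rank within the VNO, the members spanned most of the range. Gnai2, Trpc2 and Calr4 ranked 356, 391 and 429 among 20837 genes above 0, and their library values overlapped. Ano1 (rank 1429) lay below them in every library and above Gng8 (rank 3292). Gng8 and Gnao1 (rank 5640) overlapped, and Plcb2 (rank 13223) lay below both. In OB the order was Gnai2, Gnao1 and Ano1, with the other members at the bottom. Gnai2 varied least across VNO libraries, with a coefficient of variation of 6.4%, and Gng8 most, with 20.5%.

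Within gene families, on the FPKM scale, which is per length, Trpc2 made up 82.4 ± 1.84% of the summed FPKM of 7 Trpc genes in VNO (SD, n = 12), 6.86 ± 1.40% in MOE and 0.970 ± 1.23% in OB. Gnai2 was the second of 14 G protein alpha genes in VNO with 23.8 ± 1.01%, after Gnas, and Gnao1 the sixth with 2.50 ± 0.311%. Gng8 was the fourth of 12 gamma genes in VNO with 8.92 ± 1.39%, after Gng13, Gng2 and Gng10. Plcb2 was the lowest of 4 Plcb genes in each tissue, with 2.72 ± 0.362% in VNO, where Plcb4 was first with 69.4%. Ano1 was the first of 10 Ano genes in VNO with 35.5 ± 1.50%, and the third in MOE with 5.93 ± 0.687%, where Ano2 was first. Calr4 made up 23.8 ± 1.40% of 3 calreticulin genes in VNO and 0.137 ± 0.0648% in MOE, and Calr was first in all 3 tissues.

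**Figure D3:**
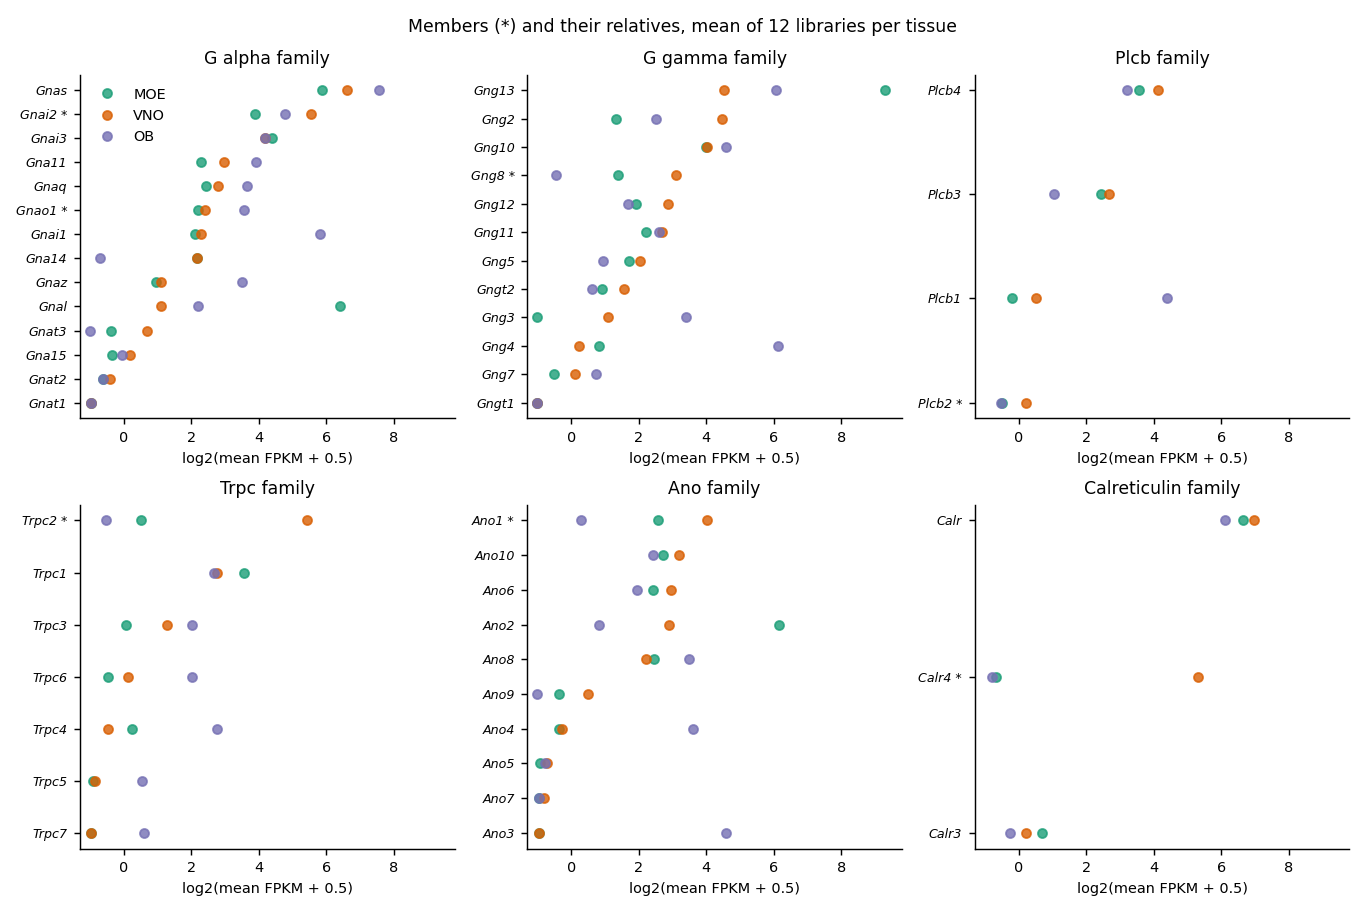
log2(mean FPKM + 0.5) of each member (asterisk) and its relatives in MOE, VNO and OB, with 1 panel per family and genes ordered by their VNO level. Trpc2 and Ano1 head their families in VNO and Plcb2 is the lowest of the Plcb genes in all 3 tissues.

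Other genes of the pathway moved in both directions. Of 32 genes tested, 14 were higher and 16 lower in VNO than in MOE, with a median difference of -0.13, beside the 34% higher and 48.6% lower of all genes. Among 7 genes for phospholipases, inositol trisphosphate receptors and lipid enzymes, 6 were higher and 0 lower. Gng2, a gamma subunit, was higher by 3.13 (SE 0.0704) and Itpr3, an inositol trisphosphate receptor also known from taste and tuft cells, by 1.54 (SE 0.0573). Gng13, the gamma subunit of olfactory neurons, and Ano2, their anoctamin channel, were lower in VNO, with differences of -4.79 (SE 0.118) and -3.23 (SE 0.0785). The calcium and cAMP regulators were lower in 5 of 6, and the channels and transporters in 7 of 10. Against OB, 15 of the 32 were higher and 14 lower, beside 37.8% and 48% of all genes.

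The sum over entries hid a division of the reads between transcripts of the same gene. Ano1 has 2 entries over the same span (chr7:151774454-151924497 in mm9), and in VNO 5 libraries had all of its FPKM on 1 entry, 3 on NM_178642 and 2 on NM_001242349, while 7 libraries used both. In MOE, 11 of 12 libraries used only 1 entry. The summed level of Ano1 varied by only 7.65% across VNO libraries. The 2 entries of Plcb2 (chr2:118533253-118554174) were divided in the same way, with 5 VNO libraries on 1 entry and 7 on both. The summed level of Plcb2 varied more, by 14.7%. Gnao1 has 2 entries of different span on chromosome 8 (96334738 to 96484594 and 96334738 to 96493288), and the shorter, NM_001113384, held a median of 32.2% of its FPKM in VNO, 19.5% in MOE and 24.7% in OB, with no library at 0. For Calr4, the entry with the outermost start, NM_001285895 (chr4:108891018-108927182), held 100% of the VNO level in 12 of 12 libraries. Gnai2 (chr9:107516469-107537673) and Gng8 (chr7:17477135-17480784) have 1 entry each. Short reads leave entries of nearly the same sequence poorly separated, so that the shares are given without a test and the sums are used elsewhere.

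**Figure D4:**
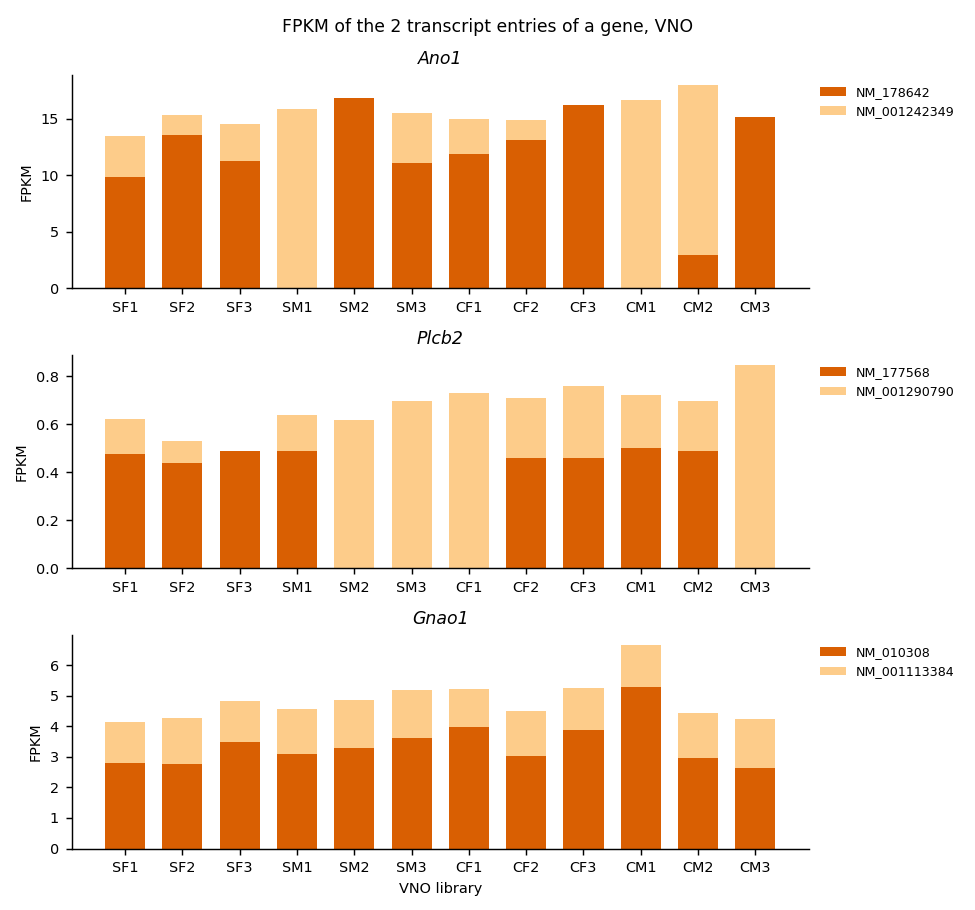
FPKM of the 2 transcript entries of Ano1, Plcb2 and Gnao1 in the 12 VNO libraries, stacked so that the bar height is the summed level. The Ano1 and Plcb2 values move between entries from library to library. The bar heights have a coefficient of variation of 7.65% for Ano1 and 14.7% for Plcb2. Gnao1 keeps both entries in every library.

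Comparisons of sex and housing within each tissue gave no call for any member. Of the 7 members, 7 were tested in VNO, 5 in MOE (without Plcb2 and Calr4) and 3 in OB (Gnao1, Gnai2 and Ano1), in 5 comparisons each, namely SF with SM, CF with CM, CF with SF, CM with SM, and the interaction of sex and housing. At an adjusted p under 0.05 in limma, 0 members were called in all 15 comparisons. Of all genes tested, in the order SF with SM, CF with CM, interaction, CF with SF and CM with SM, 0.102%, 0.0437%, 0.0364%, 0.051% and 0.0655% were called in MOE. The shares were 0.0724%, 0.0434%, 0%, 0% and 0% for VNO, and for OB they were 0.0391%, 0.047%, 0.00783%, 0.00783% and 0%. At an unadjusted p under 0.05 there were 4 of 35 member tests in VNO, beside 8.82%, 3.92%, 5.28%, 11% and 2.32% of all genes in that order. There were 0 of 25 member tests in MOE, beside 4.18%, 1.76%, 4.62%, 2.05% and 6.95%, and 0 of 15 in OB, beside 4.59%, 5.68%, 4.13%, 2.77% and 3.37%. Differences ran from -0.54 to 0.49 in VNO, -0.27 to 0.35 in MOE and -0.20 to 0.11 in OB.

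In the VNO, Gng8 had the widest differences. Its FPKM was 7.36, 6.44 and 7.18 in SF, 8.88, 5.60 and 8.58 in SM, 11.2, 9.34 and 9.63 in CF. The CM libraries had 8.69, 7.48 and 5.94. The 3 CF libraries were above all SF and all CM libraries, the latter beside 5.45% of all genes, while SF and SM overlapped. The difference between CF and SF was 0.49 (SE 0.165, unadjusted p = 0.0117, adjusted p = 0.404, limma), that between CF and CM was 0.43 (SE 0.165, unadjusted p = 0.0222, adjusted p = 1), and the interaction was -0.54 (SE 0.233, unadjusted p = 0.0403, adjusted p = 0.894). None passed the threshold. Plcb2 was 0.621, 0.530 and 0.490 in SF and 0.729, 0.711 and 0.759 in CF libraries, a difference of 0.24 (SE 0.106, unadjusted p = 0.0451, adjusted p = 0.447 from limma). Trpc2 was 39.1, 36.2 and 44.5 in SF and 46.9, 46.3 and 47.2 in CF libraries, and Gnai2 was 42.3, 41.8 and 44.6 in SF and 46.9, 47.7 and 48.5 in CF libraries. All 3 CF libraries exceeded all 3 SF libraries for these 4 members, beside 14.9% of 13817 genes with higher CF libraries. The RNA integrity numbers that the study lists did not overlap either, and were lower in all CF than in all SF libraries of VNO. Housing and RNA integrity thus cannot be told apart in this comparison. Some marker sums were also higher in all CF than in all SF libraries, while others overlapped. The leukocyte sum was 33.9 to 39.3 in CF and 28.9 to 33.1 in SF, that of olfactory sensory neurons 29.4 to 43.2 and 23.0 to 27.9, that of apical vomeronasal neurons 33.2 to 33.3 and 28.2 to 30.9, and Omp, a marker of mature sensory neurons, 100.6 to 115.6 and 80.6 to 97.5. The apical sum of CF, that of Meis2 and Nrp2, was also above that of CM (29.2 to 32.2). The basal sum overlapped between CF and SF (6.33 to 6.70 and 5.34 to 6.89). So did the Vmn1r sum (170.6 to 207.4 and 171.5 to 183.7) and the Vmn2r sum (230.8 to 272.2 and 226.5 to 256.6). The sums of tuft cell, smooth muscle, gland and brain neuron markers overlapped as well. The part of these cell types in the member values was not tested. The differences of Trpc2 and Gnai2 were 0.23 (95% confidence interval -0.027 to 0.49, adjusted p = 0.476) and 0.15 (95% confidence interval -0.027 to 0.33, adjusted p = 0.491) in limma. The median difference over all genes between CF and SF was 0.097, and under upper quartile scaling the Gng8 difference was 0.38 (adjusted p = 0.942 from limma). For Ano1, all 3 SF libraries (13.5, 15.3 and 14.5) lay below all 3 SM libraries (15.8, 16.8 and 15.5), as for 13% of genes, with a difference of -0.15 (95% confidence interval -0.33 to 0.027, adjusted p = 0.603 from limma). The gland sum was likewise lower in all SF (2132 to 2713) than in all SM libraries (2910 to 3536), as was that of olfactory sensory neurons (23.0 to 27.9 and 35.5 to 45.1), while the smooth muscle sums overlapped. Their part was not tested. The differences of Gnao1 and Calr4 were between -0.13 and 0.16 and between -0.037 and 0.11 over the 4 group comparisons.

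In MOE the widest differences were those of Gnao1 and Gnai2. Gnao1 was 4.38, 2.55 and 3.20 in SF and 4.15, 4.85 and 4.09 in CF libraries, which overlapped, with a difference of 0.35 (95% confidence interval -0.046 to 0.75, adjusted p = 1 from limma). Gnai2 was 15.0, 15.9 and 14.5 in SM and 13.8, 15.1 and 9.13 in CM libraries, a difference of -0.27 (95% confidence interval -0.70 to 0.15, adjusted p = 0.71 from limma) which was -0.063 without MOE-CM3. Without MOE-SF2 the Gnao1 difference was 0.19, and without MOE-SF1 it was 0.53. Plcb2, not tested in MOE, was higher in the SM libraries (0.257, 0.340 and 0.236) than in all SF (0.192, 0.205 and 0.231) and all CM libraries (0.149, 0.200 and 0.111), from 8 to 29 estimated fragments, beside 6.53% and 13% of all genes tested with such an order. In OB, Gnai2 ranged from 22.6 to 29.2 in SF, 27.9 to 29.0 in SM, 24.8 to 29.3 in CF and 25.5 to 28.3 in CM, so that the groups overlapped. Trpc2, not tested in OB, was 0.520, 0.634 and 0.386 in SF and 0, 0 and 0.341 in CF libraries. All 3 CF libraries were thus below all SF libraries, beside 2.14% of the 12774 genes above the filter.

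**Figure D5:**
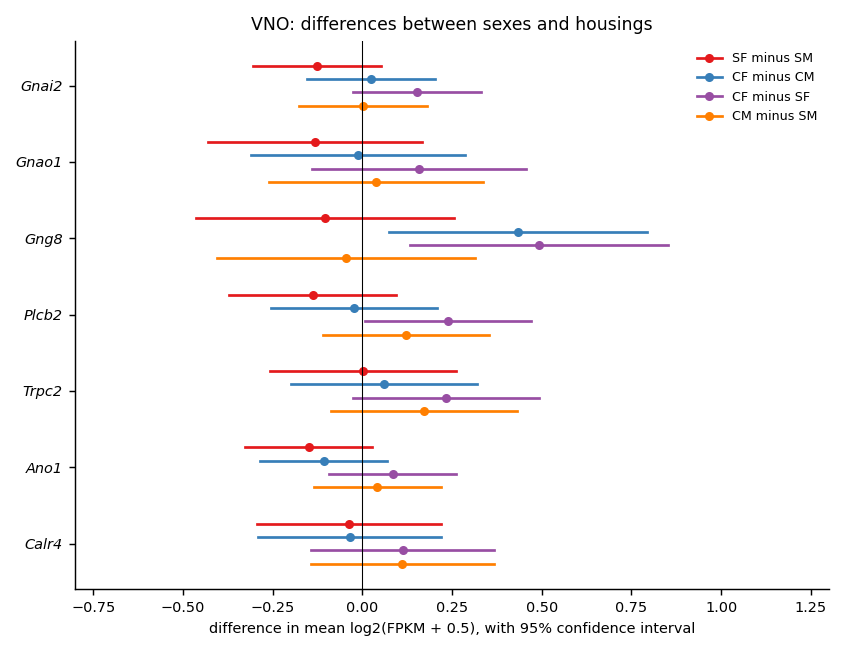
Differences in mean log2(FPKM + 0.5) between the groups of VNO libraries, with 95% confidence intervals from limma over 12 libraries. The intervals for Gng8 in CF against CM and against SF lie above 0 before adjustment (0.43 and 0.49), as does that for Plcb2 in CF against SF (0.24), and the others include 0.

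For each member, the genes with the most similar pattern over the 12 group means of log2(FPKM + 0.5) were found by Pearson's r among the genes tested, as a description, since the group means share the differences between tissues. Trpc2 was closest to Gm16364 (r = 0.998) and Hsd17b2 (0.997), Gnao1 to Clip3 (0.996) and Rtl8a (0.994), Gnai2 to Prkg1 (0.996) and Esam (0.996), and Gng8 to Elovl1 (0.998) and Enpp1 (0.997). Ano1 was closest to Acta2 (0.999), a smooth muscle actin, and Adgrl2 (0.999), and Calr4 to the V2R receptor genes Vmn2r66 (0.9998) and Vmn2r89 (0.9998). Among the members, Trpc2 and Calr4 had r = 0.985, Gng8 and Ano1 0.988, and Gnao1 and Ano1 -0.84. Over the 12 VNO libraries, where 12 points share depth and dissection, Trpc2 was closest to Sbk1 (0.960) and Lrp11 (0.925), Gnao1 to Ahcyl1 (0.940) and Nf2 (0.938), Gnai2 to Ak1 (0.948) and Acsl6 (0.918), and Gng8 to Msi1 (0.950) and Vmn1r73 (0.919). Plcb2 was closest to Trarg1 (0.848) and Arhgef4 (0.847), Ano1 to Klf16 (0.925) and Por (0.924), and Calr4 to Dcdc2a (0.952) and Jak1 (0.930). In the VNO libraries Trpc2 and Gnai2 had r = 0.808.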

How the data were processed

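The authors sequenced rRNA-depleted, stranded libraries of pooled total RNA as pairs of 50 bases on 2 lanes, aligned them with TopHat2 (version 2.1.0 in the processing notes) and estimated FPKM with Cufflinks (2.2.1.0). Options are not given in the sources used here. The authors deposited FPKM values per RefSeq transcript entry, with 95% confidence limits, at mm9 loci. The values are not counts, and the MOE tables list more entries than the others.

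Entries were assigned to symbols through RefSeq accessions (99.4% of entries) and summed by gene. Fragments behind a value were estimated from the confidence limits, as FPKM over its standard error, squared, with a floor of 3. This estimate is not a count and does not cover the spread between pools, and PCR copies are not independent molecules. For Trpc2 it was 14.9 at an FPKM of 0.552 in MOE-SM2, where Xntrpc had 0.671. In MOE-SF2, where Xntrpc was at 0, it was 35.1 at 0.734. Values were tested as log2(FPKM + 0.5) with limma 3.58.1 in R 4.3.3 (lmFit, eBayes with a trend), keeping genes whose mean FPKM reached 0.5. Tissues were compared in 1 fit over 36 libraries and 12 groups, and sex and housing in 1 fit per tissue over 12 libraries and 4 groups, with Benjamini-Hochberg adjustment over all genes tested. Such fold changes understate low genes. Replicates are pools, and p-values measure the spread between pools. The fits were tested on simulated data.

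The members, gene lists and tests were chosen with earlier results of these data known. Named genes are the members, of the other pathway genes the 2 largest changes each way between VNO and MOE among those past the threshold, the leading relatives, and the 2 genes most like each member. Promoters came from RefSeq windows on GRCm38.p6, of which only names and these windows were used. Alternatives were pseudocounts of 0.1 and 1, no filter, quantile and upper quartile scaling, library weights, the replicate number as a block, the highest entry, fits on the compared libraries alone, and leaving out each library in turn. Figures used Python 3.11.15, numpy 2.4.6, pandas 2.3.3 and matplotlib 3.10.9.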

Additional observations from a re-analysis of the deposited data

Results flagged for a closer look

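The CF and SF libraries of Trpc2 stood in opposite orders in VNO and OB, without a call in VNO (adjusted p = 0.476 from limma) and without a test in OB, where its level was below the filter. In VNO the mean FPKM of CF libraries exceeded that of SF libraries by 6.89, and all 3 CF libraries lay above all 3 SF libraries, as for 14.9% of genes. In OB the difference was -0.40, and all 3 CF libraries, of which 2 were listed at 0, lay below all 3 SF libraries, as for 2.14% of the genes above the filter. The difference between the tissues was not tested, and in VNO the RNA integrity numbers of the study separated the CF from the SF libraries. In OB the levels rested on at most 33.1 estimated fragments, and Xntrpc, which shares the locus, was at 0 in all of these OB libraries.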

How the results depend on the processing

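Between tissues, the members' differences kept their direction and side of the threshold in 141 of 146 checks under other settings and in 644 of 648 with 1 library left out. These counts include the checks of Calr4, which passed the filter only through its VNO level, so that its checks only describe it. The exceptions were Calr4 between MOE and OB, which entered only through its VNO level and was at or near the fragment limit in both (0.12, and 0.36 with a pseudocount of 0.1, 0.15 with the highest entry and -0.31 with quantile normalization, which reversed it), Gnao1 between VNO and MOE (0.04) and Ano1 between MOE and OB (0.27), both with the highest entry. With 1 library left out, the 4 exceptions were all of Calr4 between MOE and OB, which ran from 0.090 to 0.16 and is given without a call. Gnao1 between VNO and MOE stayed between 0.18 and 0.27 with adjusted p of at most 0.0195 in limma. Within tissues, library weights gave 1 called member in MOE between CF and SF (Ano1, named after its values were seen) and 1 in OB between CM and SM (Gnao1), against 0 otherwise, and 37 of 585 other checks changed the sign of a difference that was not called, as did 67 of 900 with 1 library left out. The cause was not tested. The Gng8 difference between CF and SF in VNO ran from 0.42 to 0.54 and that between CF and CM from 0.30 to 0.55 with 1 library left out, and adjusted p stayed above 0.27. A further setting took the replicate number as a block, which the labels do not define as a pairing although the tissues came from the same mice. With it, the same 6 members passed the threshold between VNO and MOE, among them Calr4, which is a description only. The Gng8 difference of 0.49 had an adjusted p of 0.374 from limma with the block. The block changed no call. Deviations from the group means of libraries with the same number correlated between -0.24 and 0.16 between tissues (36 pairs). Within VNO, the median correlation was 0.082 for the same number, with 8 of 18 pairs over 0.1. For different numbers in VNO it was -0.047, with 4 of 36 pairs over 0.1. The medians for the same and for different numbers were 0.022 and -0.0081 in MOE and -0.00011 and 0.0023 in OB. Depth limits Calr4, Gng8 and Trpc2 outside the VNO, where levels rested on few fragments.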
